A study of Mus musculus with 6 samples.

Results

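AMPA and NMDA receptors are the ion channels that carry fast excitatory transmission, and the genes of their subunits were followed here in neurons taken from the amygdala of stressed mice. The set was defined by gene symbol: Gria1, Gria2, Gria3 and Gria4 for AMPA receptors, and Grin1, Grin2a, Grin2b, Grin2c, Grin2d and Grin3a for NMDA receptors. All 10 were found among the 35976 genes counted. The data were 6 bulk RNA-seq libraries of neurons from male C57BL/6J mice, 3 labelled sgRosa and 3 labelled sgEgfr; ages are not stated. An adeno-associated virus carried Cas9 under GfaABC1D, a promoter active in astrocytes, with guides that target either Egfr, which encodes the receptor for epidermal growth factor, or Rosa as the control. All mice of both groups had more than 2 weeks of expression, then restraint in a tube for 7 days, fear conditioning for 1 day and extinction training for 3 days, so no unstressed group was compared. The shared protocol also names guides in microglia (sgRosa or sgAreg), and the sample labels do not say whether the mice of these libraries received them. The comparison asks whether neuronal transcripts differed when the astrocytes of the same region carried guides against Egfr.

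AMPA receptors are tetramers of the GluA1 to GluA4 proteins, encoded by Gria1 to Gria4. The GluA2 protein keeps calcium out of the channel because its messenger RNA is edited at the Q/R site, where the genomic glutamine codon is read as arginine. NMDA receptors need the glycine-binding GluN1 subunit, encoded by Grin1, together with GluN2 subunits, which bind glutamate and set the kinetics, or with GluN3 subunits, which bind glycine and lower calcium entry. In the amygdala, AMPA receptor insertion and NMDA receptor opening are textbook steps in the storage of conditioned fear.

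The stretch of 8 of these genes that codes for this pore site shows how alike the subunits are, and which base the counts cannot report on. The sequences below are read 5′ to 3′ on the coding strand from GENCODE transcripts of GRCm38 (mm10), all inside coding exons. Capitals mark the codon of the Q/R site in the Gria genes and of the N site, the asparagine that takes part in magnesium block, in the Grin genes.
Gria1 (chr11:57243082-57243108, plus strand): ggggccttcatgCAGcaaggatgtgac
Gria2 (chr3:80706899-80706925, minus strand): ggtgcctttatgCAGcaaggatgcgat
Gria3 (chrX:41610253-41610279, plus strand): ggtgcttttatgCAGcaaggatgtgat
Gria4 (chr9:4464125-4464151, minus strand): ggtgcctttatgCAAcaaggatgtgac
Grin1 (chr2:25297374-25297400, minus strand): ggcgtcctgctcAACtctggcattggg
Grin2a (chr16:9653549-9653575, minus strand): ggcctggtcttcAACaattctgtgccc
Grin2c (chr11:115253851-115253877, minus strand): gcactggtcttcAACaactctgttccc
Grin2d (chr7:45854381-45854407, minus strand): gccctggtgttcAACaactccgtgcca
Gria1 and Gria2 shared 23 of these 27 bases, and Gria2 and Gria3 shared 25. Grin2a and Grin2c shared 23. Grin1 shared 12 with Grin2a and 10 with Gria2. In the genome all 4 Gria genes carry a glutamine codon at the site, so the letters do not set Gria2 apart. A count of reads per gene does not hold the base that was read there, so editing of Gria2 was not measured. The sequences of the other two genes are not shown.

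Total counts ran from 2348897 to 10152812 per library, and the subunit genes took between 1408 and 18780 of them. A floor of 3 counts corresponded to between 0.270 and 1.25 CPM, the count per library size scaled by the trimmed mean of M-values (TMM), and such floors cover counting error only. Egfr was counted 1, 26 and 23 times in sgRosa and 6, 18 and 6 times in sgEgfr; Cas9 was in astrocytes, so these counts do not check the edit. The labelled cell type was present: the 15 pan-neuronal markers summed to between 2920 and 7178 CPM in sgRosa and between 4080 and 6579 CPM in sgEgfr, with none at 0. Oligodendrocyte markers were higher still, at 24623 to 72656 and 22648 to 57947 CPM over 10 genes. Astrocyte markers summed to 612 to 1198 and 413 to 1267 CPM over 10 genes, and microglial markers to 62.2 to 156 and 32.0 to 458 CPM over 8 genes. The 7 choroid plexus markers reached 3455 CPM in sgRosa replicate 3 and 2232 CPM in sgEgfr replicate 1, against at most 44.0 CPM in the other 4 libraries; 2 of them were at 0 in sgRosa replicate 1 and in sgEgfr replicate 3. In bulk libraries fewer cells of a type and less RNA per cell cannot be told apart. The labels do not say whether replicates were separate animals, so the p-values refer to the spread among these libraries, which may be technical.

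No subunit gene differed between sgEgfr and sgRosa beyond the spread between libraries. All 10 passed the filter on low counts and were tested, and 9 had a positive log2 fold change, which 46.2% of the 13159 tested genes also had. The median was 0.37 over the subunit genes and -0.039 over all tested genes. With p adjusted by Benjamini-Hochberg in edgeR's quasi-likelihood fit, 0 of the 10 passed 0.05, and of all tested genes 0% were called. Again 0 had an unadjusted p under 0.05, against 5.77% of all tested genes, and in 0 of the 10 did every sgEgfr library lie above every sgRosa library, against 5.8%. In 0 of the 10 did every sgEgfr library lie below every sgRosa library, against 7.6%. DESeq2 called 0 of the 10 (3 had no defined adjusted p), against 0.251% of all genes, and 0 had an unadjusted p under 0.05, against 5.98%. By limma-voom with quality weights 0 passed after adjustment, and 4 (Gria2, Gria3, Grin2a and Grin2b) had an unadjusted p under 0.05, against 15% of all genes by that method.

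**Figure D1:**
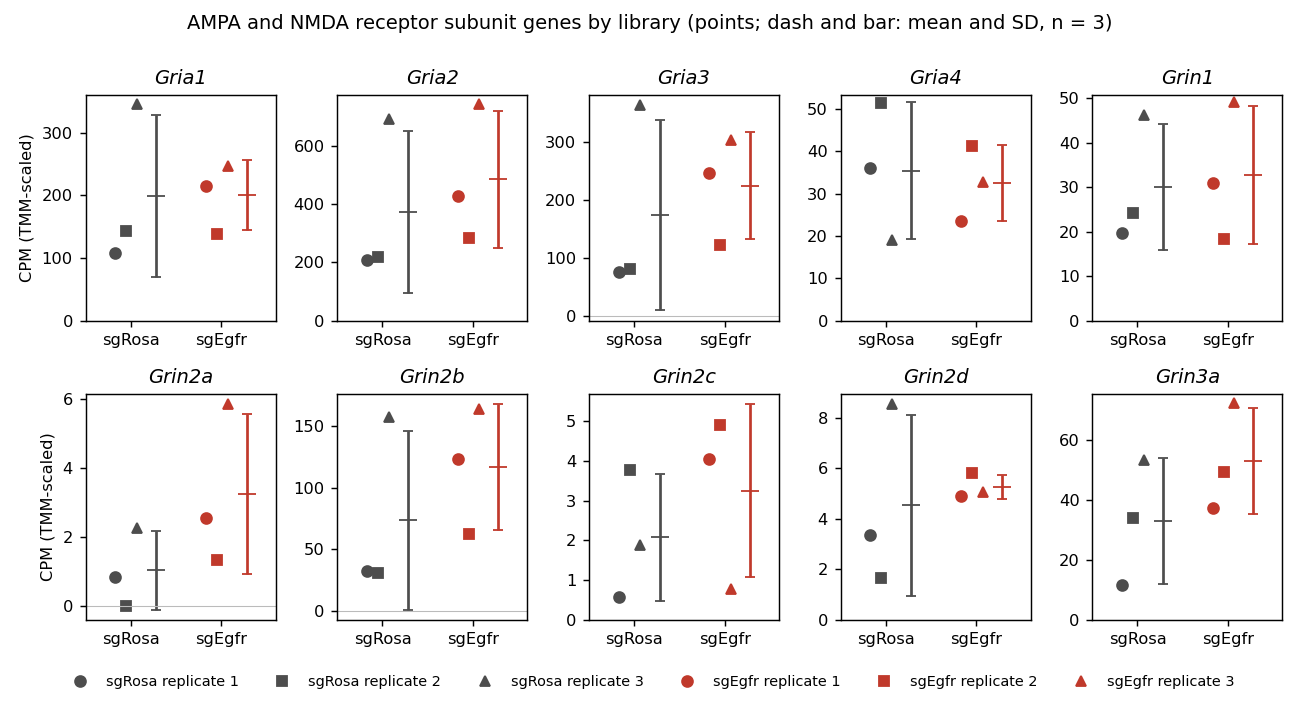
Level of each subunit gene in each library (y axis: CPM scaled by TMM, linear; points: libraries, with the shape giving the replicate number; dash and bar: mean and SD of 3 libraries). In Gria2 the highest libraries are sgEgfr replicate 3 (741 CPM) and sgRosa replicate 3 (693 CPM), and the groups overlap in all 10 genes.

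Gria1, Gria2 and Gria3 had the highest mean levels of the set, and Gria4 was far below them. Gria2 (chromosome 3, 80681450 to 80802835, minus strand), which encodes the subunit that makes the channel impermeable to calcium, had 206, 218 and 693 CPM in sgRosa replicates 1, 2 and 3, and 429, 282 and 741 CPM in sgEgfr replicates 1, 2 and 3. Replicate 3 was the highest library in both groups, and the sgRosa libraries spanned most of the sgEgfr range. The means were 372 ± 278 and 484 ± 234 CPM (SD, n = 3 each). The log2 fold change was 0.37 (SE 0.57; edgeR adjusted p = 0.922).

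Gria1 (chromosome 11, 57011387 to 57330244, plus strand) encodes GluA1, the subunit whose insertion at synapses accompanies fear learning. It had 107, 143 and 346 CPM in sgRosa and 215, 139 and 247 CPM in sgEgfr. The means of 199 ± 129 and 200.1 ± 55.7 CPM (SD, n = 3 each) were almost the same, while the sgRosa libraries were spread more widely. The log2 fold change of Gria1 was 0.0033 (SE 0.47; edgeR adjusted p = 0.999), and it was -0.015 with upper-quartile scaling and -0.041 with scaling by library size alone.

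Gria3 (chromosome X, 41400854 to 41678601, plus strand) encodes GluA3, which pairs with GluA2 in many forebrain receptors. Its levels were 75.9, 81.0 and 363 CPM in sgRosa and 246, 123 and 304 CPM in sgEgfr. Only sgRosa replicate 3 kept the groups from separating: sgRosa replicates 1 and 2 lay below every sgEgfr library. The means were 173 ± 164 and 224 ± 92.5 CPM (SD, n = 3 each), with a log2 fold change of 0.36 (SE 0.65; edgeR adjusted p = 0.936).

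Gria4 (chromosome 9, 4417896 to 4796234, minus strand) encodes GluA4, a fast-gating subunit used by some interneurons and by cells of the oligodendrocyte lineage. It had 36.0, 51.4 and 19.0 CPM in sgRosa and 23.5, 41.3 and 32.7 CPM in sgEgfr. Here sgRosa replicate 3 was the lowest library rather than the highest among the sgRosa ones, and replicate 2 was the highest of each group. The means were 35.5 ± 16.2 and 32.5 ± 8.91 CPM (SD, n = 3 each). Gria4 was the 1 gene of the set with a negative log2 fold change, -0.11 (SE 0.39; edgeR adjusted p = 0.966).

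Among the NMDA receptor genes, Grin1 (chromosome 2, 25291181 to 25319187, minus strand) encodes the obligatory GluN1 subunit. It had 19.7, 24.2 and 46.4 CPM in sgRosa and 30.9, 18.3 and 49.1 CPM in sgEgfr. Both groups ran over nearly the same range, with means of 30.1 ± 14.3 and 32.8 ± 15.5 CPM (SD, n = 3 each). The log2 fold change was 0.09 (SE 0.44; edgeR adjusted p = 0.975). Exons of Grin1 overlap those of Grin1os, a gene on the opposite strand, over 1307 bases, and the strand setting of the counting is not given in the sources used here.

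Grin2b (chromosome 6, 135713233 to 136173511, minus strand) encodes GluN2B, the slow-closing subunit that anchors CaMKII at the synapse. Its levels were 32.3, 30.9 and 157 CPM in sgRosa and 123, 62.3 and 164 CPM in sgEgfr. As with Gria3, sgRosa replicates 1 and 2 lay below every sgEgfr library and replicate 3 lay near the top. The means were 73.4 ± 72.4 and 116 ± 51.0 CPM (SD, n = 3 each), with a log2 fold change of 0.64 (SE 0.67; edgeR adjusted p = 0.886). Its exons overlap genes of the opposite strand over at most 143 bases per gene.

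Grin2a (chromosome 16, 9567898 to 9995560, minus strand) encodes GluN2A, the faster subunit of mature forebrain synapses. It had the lowest mean level per length of the set, with 3, 0 and 25 reads in sgRosa and 12, 6 and 15 reads in sgEgfr. In CPM these were 0.844, 0 and 2.25 against 2.56, 1.34 and 5.84, and the 0 in sgRosa replicate 2 lies under a floor of 1.25 CPM. The means were 1.03 ± 1.14 and 3.25 ± 2.33 CPM (SD, n = 3 each). Grin2a had the largest log2 fold change of the 10 genes, 1.25, and also the largest standard error, 0.88 (edgeR adjusted p = 0.839).

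Grin2c and Grin2d were also low. Grin2c (chromosome 11, 115249169 to 115267243, minus strand), which encodes a GluN2 subunit found in astrocytes and in some interneurons, had 0.562, 3.76 and 1.89 CPM in sgRosa and 4.05, 4.91 and 0.779 CPM in sgEgfr. These came from 2 to 22 reads, and each group held both a low and a high library. Its log2 fold change was 0.78 (SE 0.78; edgeR adjusted p = 0.878). Grin2d (chromosome 7, 45831883 to 45878378, minus strand), which encodes the very slow GluN2D subunit of interneurons and early development, had 3.37, 1.67 and 8.55 CPM in sgRosa and 4.91, 5.80 and 5.07 CPM in sgEgfr. The sgEgfr libraries of Grin2d agreed closely, at 5.26 ± 0.478 CPM, and lay inside the sgRosa range (4.53 ± 3.58 CPM; SD, n = 3 each). Its log2 fold change was 0.11 (SE 0.56; edgeR adjusted p = 0.977), and its exons overlap Gm45441 on the opposite strand over 643 bases.

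Grin3a (chromosome 4, 49661611 to 49845744, minus strand) encodes GluN3A, a subunit that restrains synapse maturation. It had 11.5, 33.8 and 53.3 CPM in sgRosa and 37.1, 49.3 and 72.1 CPM in sgEgfr. The groups overlapped through sgRosa replicate 3, which lay within the sgEgfr range, while the other two sgRosa libraries lay below it. The means were 32.9 ± 20.9 and 52.8 ± 17.8 CPM (SD, n = 3 each), with a log2 fold change of 0.66 (SE 0.51; edgeR adjusted p = 0.848).

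The values depended strongly on sgRosa replicate 3, the deepest library and one of the pair with choroid plexus RNA. Without it the median log2 fold change was 1.09 and 5 subunit genes (Gria2, Gria3, Grin2a, Grin2b and Grin3a) had an unadjusted p under 0.05, while 0 passed after adjustment by edgeR. The background moved too: 2653 of 13159 genes (20.2%) then had an unadjusted p under 0.05, against 759 with all libraries. Marker lists moved in the same fit, with medians of 1.10 for pan-neuronal genes (15 of 15 positive), 2.16 for excitatory, -1.39 for inhibitory and -1.23 for oligodendrocyte genes. Without sgRosa replicate 3 the log2 fold changes were 1.87 for Grin2b (SE 0.41), 1.51 for Gria3 (SE 0.39), 1.18 for Gria2 (SE 0.41) and 1.24 for Grin3a (SE 0.48). Gria1 then had 0.67 and Grin1 0.56, and Gria4 stayed negative at -0.42. With sgEgfr replicate 1, the other library with choroid plexus RNA, also left out, the median was 1.17. Leaving out sgRosa replicate 1 or sgEgfr replicate 3 gave medians of 0.075 and 0.16, with 6 positive genes each, and the value of Gria2 without sgEgfr replicate 3 was -0.025.

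**Figure D2:**
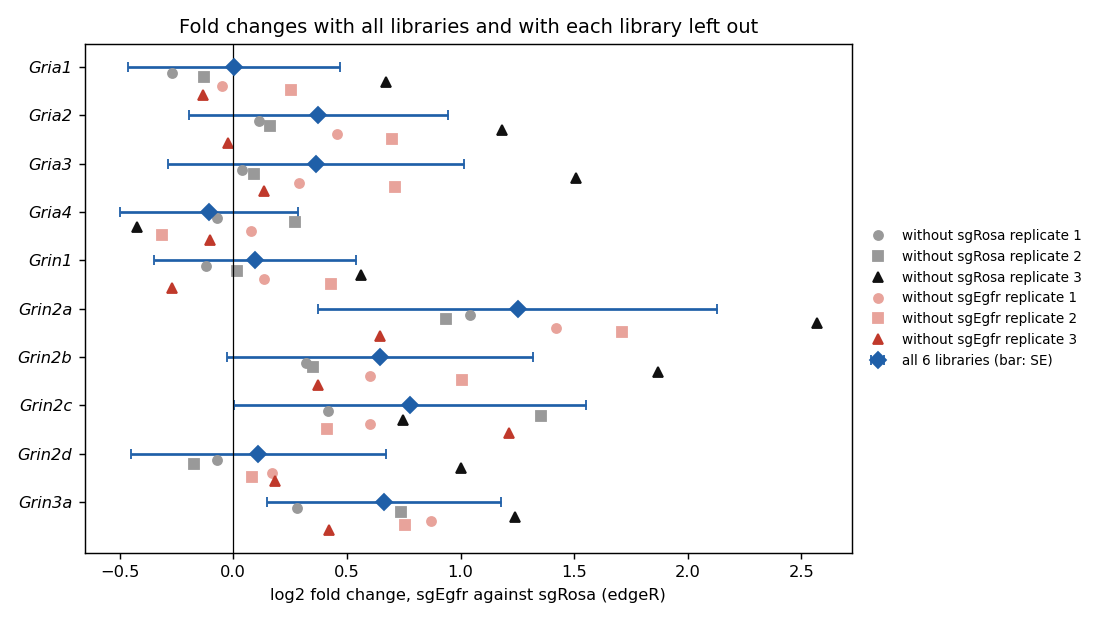
Log2 fold change of each subunit gene, sgEgfr against sgRosa (x axis, edgeR; diamonds with bars: all 6 libraries with SE; other symbols: fits with 1 library left out). The fits without sgRosa replicate 3 lie farthest right in 8 of the 10 genes, at 1.87 for Grin2b and 1.51 for Gria3; in Gria4 that fit is the lowest, at -0.42, and in Grin2c it is at 0.75.

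Of the 10 subunit genes, 6 (Gria1, Gria2, Gria3, Grin1, Grin2b and Grin3a) had their highest levels in sgRosa replicate 3 and sgEgfr replicate 3, the libraries with the most pan-neuronal RNA. The mean log2 CPM of the 15 pan-neuronal markers was 6.81, 6.80 and 7.94 in sgRosa replicates 1 to 3 and 7.77, 7.29 and 8.02 in sgEgfr replicates 1 to 3, and 15 of the 15 had a positive log2 fold change (median 0.42). Gria2 followed the same order of libraries from the top, with log2 CPM of 9.53 in sgEgfr replicate 3, 9.44 in sgRosa replicate 3, 8.75 in sgEgfr replicate 1 and 8.14 in sgEgfr replicate 2. Grin2b had the same top 4 in the same order, at 7.36, 7.30, 6.95 and 5.97. Excitatory neuron markers were positive in 9 of 9 genes (median 0.81), inhibitory neuron markers negative in 9 of 9 tested (median -0.95) and oligodendrocyte markers negative in 10 of 10 (median -0.86). By edgeR 0 of these passed after adjustment; at an unadjusted p under 0.05 there were 1 pan-neuronal, 0 excitatory, 3 inhibitory and 1 oligodendrocyte gene. Microglial markers were positive in 8 of 8, oligodendrocyte precursor markers in 5 of 5 tested and astrocyte markers in 2 of 10, again with 0 passing by edgeR and with 0, 1 and 0 at an unadjusted p under 0.05. Over these lists DESeq2 called 1 inhibitory marker and no other, and limma-voom called 0.

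Set against the pan-neuronal mean of its own library, 5 of the 10 subunit genes were positive and 5 negative, with a median of 0.011 on the log2 scale. This split depended on the reference: 9 of 10 were negative against the excitatory markers (median -0.54) and 7 of 10 against Rbfox3 alone (median -0.17). The pan-neuronal mean itself was 0.51 higher in sgEgfr. Relative to it Gria2 averaged 1.12 ± 0.33 in sgRosa and 1.12 ± 0.35 in sgEgfr (SD, 3 libraries each), a difference of -0.0012 (SE 0.28). The largest differences in each direction were 1.01 (SE 0.62) for Grin2a and -0.56 (SE 0.87) for Gria4. Gria1 differed by -0.35 (SE 0.17) and Grin1 by -0.40 (SE 0.22), while Grin2b differed by 0.48 (SE 0.44) and Grin3a by 0.37 (SE 0.52). Against the pan-neuronal mean the smallest exact permutation p over the 20 assignments of libraries was 0.2 (two-sided), against 0.1 as the smallest the design allows, and every value adjusted over the 10 genes was 1. With excitatory markers as the reference Gria4 was at -1.113, Grin1 at -0.95, Gria1 at -0.91, Grin2d at -0.61, Gria2 at -0.56, Grin2c at -0.53, Gria3 at -0.39, Grin3a at -0.19 and Grin2b at -0.071, and only Grin2a was positive, at 0.45. The smallest exact permutation p there was 0.1, for Gria1 and Gria3, and 0.5 after adjustment over the 10 genes.

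Gria4 and Grin2c followed other orders of the libraries. The log2 CPM of Gria4 was 5.69 in sgRosa replicate 2, 5.38 in sgEgfr replicate 2 and 5.19 in sgRosa replicate 1, the 3 libraries with the lowest pan-neuronal means and the highest oligodendrocyte sums (65733, 57947 and 72656 CPM). It was lowest, at 4.28, in sgRosa replicate 3, where the oligodendrocyte markers summed to 24623 CPM. In sgEgfr replicate 3, however, which had the lowest oligodendrocyte sum (22648 CPM) and the highest pan-neuronal mean, Gria4 was at 5.05, near its level in sgRosa replicate 1. The mean log2 CPM of the inhibitory neuron markers was 3.58 in sgRosa replicate 2, 3.51 in sgRosa replicate 1 and 2.48 in sgEgfr replicate 2. That mean was 2.45 in sgEgfr replicate 3, 2.34 in sgRosa replicate 3 and 2.05 in sgEgfr replicate 1. Grin2c was highest in sgEgfr replicate 2 (log2 CPM 2.41), where the mean of the astrocyte markers was also highest (6.01). It was next at 2.16 in sgEgfr replicate 1, beside a lower astrocyte mean of 5.35, and at 2.06 in sgRosa replicate 2 beside 5.96. In sgRosa replicate 3 it was at 1.21 beside 5.05. Its lowest libraries were sgRosa replicate 1 at -0.03 and sgEgfr replicate 3 at 0.26, beside astrocyte means of 4.79 and 3.89. The mean of the microglial markers was also highest in sgEgfr replicates 2 (5.46) and 1 (4.86) and lowest in sgEgfr replicate 3 (1.70). That microglial mean was lower in sgRosa replicate 2 (3.43) than in sgRosa replicate 3 (3.89). The part of these cells in either level was not tested.

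**Figure D3:**
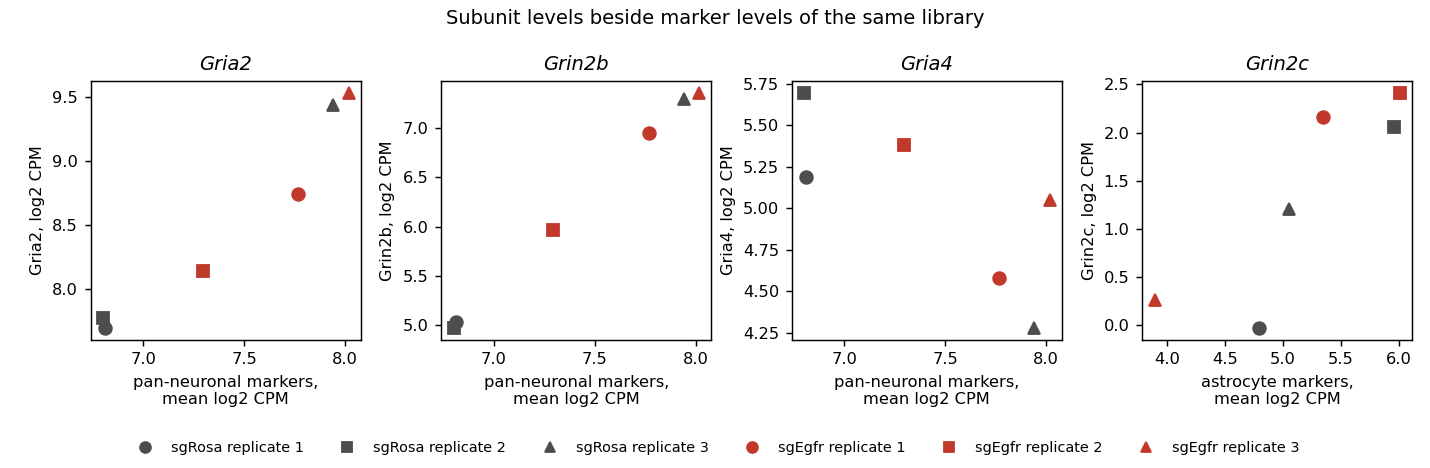
Log2 CPM of Gria2, Grin2b, Gria4 and Grin2c (y axes) against the mean log2 CPM of pan-neuronal markers, or of astrocyte markers for Grin2c, in the same library (x axes; points: the 6 libraries). Gria2 and Grin2b are highest in the 2 libraries with pan-neuronal means of 7.94 and 8.02, while Gria4 is lowest in the first of these.

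Ratios between subunits within a library do not depend on how libraries are scaled. Each is the log2 ratio of reads per kb of exon, and 7 of the 10 listed ratios had at least 10 reads on each side in every library. The ratio of Gria1 to Gria2 was 0.51 ± 0.21 in sgRosa and 0.16 ± 0.33 in sgEgfr, a difference of -0.35 (SE 0.23; exact permutation p = 0.2). The library that stood lowest was sgEgfr replicate 3, at -0.22, and the other 5 lay between 0.34 and 0.76. Gria2 against the sum of Gria1, Gria3 and Gria4, a measure of transcripts and not of receptor composition, was -1.29 ± 0.20 and -1.04 ± 0.30 (difference 0.25, SE 0.21, exact permutation p = 0.4). As a share of all AMPA reads, Gria2 took 48.5%, 44.2% and 48.8% in sgRosa and 47.0%, 48.3% and 56.0% in sgEgfr. The groups overlapped in all of these measures. The levels of these ratios rest on the length used: per coding kb Gria1 to Gria2 was -0.89 in sgRosa and -1.24 in sgEgfr. Gria2 to the sum of the others was then -0.14 and 0.047. The difference between groups does not change with length for a ratio of single genes, but it does for a summed ratio. Gria2 to the sum of the others differed by 0.19 per coding kb (exact permutation p = 0.6). Gria3 to Gria2 differed by 0.17 (SE 0.22) and Gria4 to Gria2 by -0.56 (SE 1.106), the latter with a range from -3.88 to -0.78 over the libraries.

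In the balance of AMPA to NMDA transcripts the groups did not overlap. Its log2 ratio was 3.17, 2.85 and 3.04 in sgRosa and 2.83, 2.54 and 2.73 in sgEgfr, with means of 3.02 ± 0.16 and 2.701 ± 0.150. Every sgEgfr library lay below every sgRosa library, but the nearest pair, sgRosa replicate 2 and sgEgfr replicate 1, almost touched. The difference was -0.32 (SE 0.13), with an exact permutation p of 0.1, the smallest that 3 against 3 libraries allow, and 0.35 after adjustment over the 7 ratios. As geometric means there were 8.10 and 6.50 AMPA reads per kb for each NMDA read per kb. Counted as plain reads, NMDA genes took 13.8%, 16.1% and 15.9% of all subunit reads in sgRosa and 18.2%, 19.5% and 18.3% in sgEgfr. With each library left out in turn the difference ran from -0.40 to -0.24, and its sign could not change because the groups do not overlap. Per coding kb the difference was -0.29, and with no length scaling -0.35. With a prior of 5 reads in place of 0.5 its exact permutation p was 0.2, because the groups then overlapped.

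Within the NMDA genes, Grin2a plus Grin2b against Grin1, the glutamate-binding against the obligatory subunit, had log2 ratios of -0.59, -1.01 and 0.43 in sgRosa and 0.68, 0.45 and 0.45 in sgEgfr. The sgEgfr libraries lay within a narrow band, while sgRosa replicates 1 and 2 lay far below it and sgRosa replicate 3 just below it. The difference was 0.91 (SE 0.43, exact permutation p = 0.1, adjusted 0.35). With a prior of 5 reads the exact permutation p was 0.3, and the groups then overlapped. Grin3a to Grin1 was -0.37 ± 0.65 and 0.41 ± 0.61 (difference 0.77, SE 0.51; exact permutation p = 0.2), with overlapping groups. Of the 7 ratios with the prior of 0.5 reads, 1 had sgEgfr wholly above and 1 wholly below sgRosa, where 5.8% and 7.6% of the tested genes did. Those shares are of single-gene levels and the ratios have genes in common, so the shares are only a rough background. The ratio of Grin2a and Grin2b to Grin1 was high in the libraries with high pan-neuronal means, and the part of neuronal content in it was not tested.

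**Figure D4:**
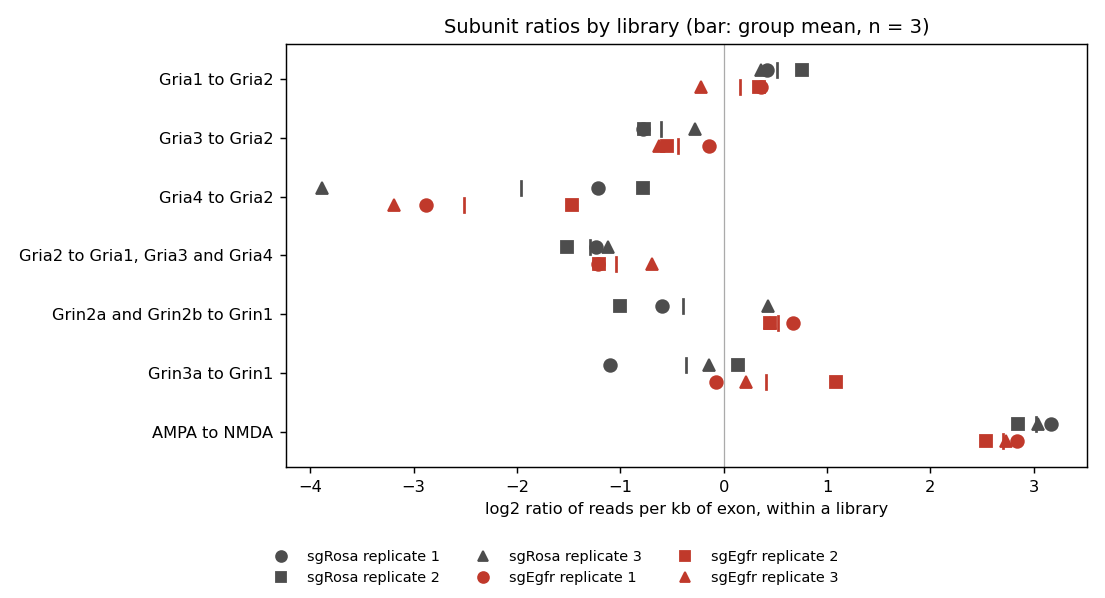
Log2 ratio of reads per kb of exon between subunits within each library (x axis; points: libraries; vertical marks: means of 3). AMPA to NMDA lies between 2.85 and 3.17 in sgRosa and between 2.54 and 2.83 in sgEgfr, and Gria4 to Gria2 spreads from -3.88 to -0.78.

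The remaining 3 ratios had too few reads, so shares of reads are given with exact Clopper-Pearson 95% intervals. Grin2a took 2.54% (0.527 to 7.25), 0% (up to 4.86) and 1.41% (0.916 to 2.08) of Grin2a plus Grin2b reads in sgRosa. In sgEgfr it took 2.03% (1.06 to 3.53), 2.11% (0.776 to 4.53) and 3.45% (1.94 to 5.62). Reads of Grin2b outnumbered those of Grin2a in every library, and the ranges of the shares overlapped between the groups. The interval of sgRosa replicate 3, the deepest, and that of sgEgfr replicate 3 overlapped only slightly. Grin2c took between 1.56% and 21.2% of Grin2c plus Grin1 reads, with the extremes in sgEgfr replicates 3 and 2. Grin2d took between 6.45% and 24.1% of Grin2d plus Grin1 reads. These intervals cover counting error of reads only. Reads were amplified without molecular identifiers, so copies of the same molecule count as separate reads and the intervals may be too narrow.

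Per kb of merged exon the order of mean levels over the 6 libraries was Gria1 (33.0 CPM per kb), Gria2 (27.5), Gria3 (20.2), Gria4 (5.39), Grin2b (3.82), Grin3a (3.49), Grin1 (3.24), Grin2d (0.735), Grin2c (0.528) and Grin2a (0.119). Gria2 was above Gria3 in 6 of 6 libraries, and Gria1 above Gria2 in 5 of 6. Gria4 was above Grin2b in 3 of 6, Grin3a above Grin1 in 3 of 6 and Grin2d above Grin2c in 3 of 6. These neighbours did not differ beyond their spread. Grin1 was above Grin2d in 6 of 6. Grin2c was above Grin2a in 5 of 6, but in 3 of 6 per kb of coding sequence. The order depends on the length used, because exons of all annotated isoforms, untranslated regions included, make the length of Gria2 15548 bases against 2649 coding bases, and that of Grin2b 24842 against 4446. Per kb of coding sequence Gria2 came first (162 CPM per kb), followed by Gria3 (74.6) and Gria1 (73.3), with Gria3 above Gria1 in 3 of 6 libraries. Grin1 had a lower mean than Grin2b on both scales, at 10.9 against 21.3 CPM per coding kb.

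**Figure D5:**
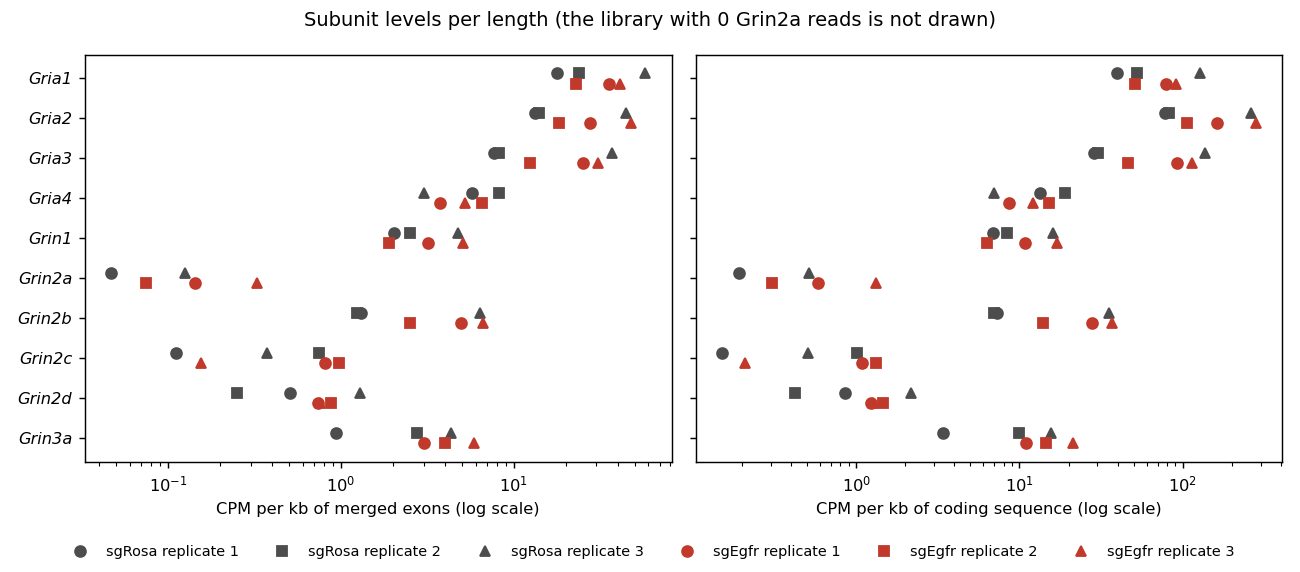
Level of each subunit gene per kb of merged exons (left) and per kb of coding sequence (right), in CPM per kb on log axes (points: libraries; the library with 0 Grin2a reads is not drawn). The mean of Gria1 is 33.0 per kb of exon and that of Gria2 is 162 per coding kb, the highest on each scale. The mean of Grin2a is the lowest on both.

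Across the 6 libraries the subunit genes themselves fell into close and distant pairs, measured by the root mean square difference of their centred log2 CPM. The closest pairs were Gria3 with Grin2b (0.17), Gria1 with Grin1 (0.22) and Gria2 with Gria3 (0.24). Gria2 was 1.13 from Gria4 and 1.32 from Grin2c. Among 5066 other genes of at least 5 mean log2 CPM, those with the pattern most like Gria2 were Nap1l2 (0.09), Ralyl (0.12) and Cacna2d1 (0.12), where the median gene was at 0.76. For Grin1 they were Atp6v0a1 (0.13), Clstn1 (0.15) and Ly6h (0.15), against a median of 0.59.

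Genes that work with these receptors were taken from 6 lists, of which 59 genes were tested. By edgeR 0 passed after adjustment and 1 had an unadjusted p under 0.05, against 5.77% of all tested genes. DESeq2 and limma-voom also called 0 after adjustment, with 1 and 12 at an unadjusted p under 0.05, where 5.98% and 15% of all tested genes were. Of the 59 genes 42 had a positive log2 fold change, against 46.2% of all tested genes. In 2 of the 59 every sgEgfr library lay above every sgRosa library, against 5.8% of all tested genes.

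Of the AMPA auxiliary and biogenesis proteins 10 of 16 genes were positive (median 0.11). Cacng7, which encodes a transmembrane AMPA receptor regulatory protein, had 2.53, 2.92 and 2.16 CPM in sgRosa and 4.27, 4.02 and 5.84 CPM in sgEgfr, without overlap. Those values rest on 7 to 24 reads, and its log2 fold change was 0.90 (SE 0.41; edgeR adjusted p = 0.820). Its relatives Cacng8 and Cacng2, the latter encoding stargazin, had 0.92 (SE 0.63) and 0.32 (SE 0.32) with overlapping groups. Of the anchoring and trafficking proteins 15 of 18 were positive (median 0.20), among them Akap5, which anchors kinases and calcineurin near the receptors, at 0.91 (SE 0.53). Dlg1, which encodes the scaffold SAP97, was at -0.32 (SE 0.34). Without sgRosa replicate 3 the values were 1.74 for Akap5, 1.45 for Cacng8, 0.65 for Cacng2 and -0.61 for Dlg1. Dlg1 was at 0.09 without sgRosa replicate 1.

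The other ionotropic glutamate receptor genes were positive in 6 of 7 tested (median 0.18). The kainate receptor genes Grik1 and Grik4 had 0.41 (SE 0.66) and -0.60 (SE 0.43). Metabotropic receptor genes were positive in 5 of 7 (median 0.21), with Grm5 at 0.44 (SE 0.46), Grm2 at 0.54 (SE 0.63) and Grm4 at -0.48 (SE 0.51). Grik1 was at -0.20 without sgEgfr replicate 3 and Grm4 at -0.0028 without sgRosa replicate 1, while without sgRosa replicate 3 Grm2 was at 1.45 and Grm5 at 1.04. Of the RNA-editing genes, Adarb1, which encodes the enzyme that edits the Q/R site of Gria2, averaged 53.3 and 69.2 CPM (log2 fold change 0.37, SE 0.26), Adar was at 0.25 (SE 0.34) and Adarb2, also an inhibitory neuron marker, at -0.15 (SE 0.46) and at 0.16 without sgEgfr replicate 1. Glutamate transport and metabolism genes split evenly, 4 positive and 4 negative (median -0.02). Slc1a2, the main astrocytic glutamate transporter gene, had 0.72 (SE 0.44) with overlapping groups. It is also one of the astrocyte markers, of which 2 of 10 were positive (median -0.15). Glud1, which encodes glutamate dehydrogenase, had -0.31 (SE 0.24).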

How the data were processed

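Neurons were enriched with a magnetic isolation kit after papain digestion, and 5 ng of RNA went into each library, per the labels' protocols. The authors deposited whole-number read counts per gene, not normalized. The submitters' processing notes name STAR 2.7.5c with build mm10, featureCounts 2.0.1 and edgeR 3.42.4, beside the read tools FastQC 0.11.9, fastp 0.23.2 and MultiQC 1.11; the annotation, options and strand setting are not given in the sources used here. Libraries were grouped by their titles, and 3 columns matched no sample and were not used.

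From these counts, 13159 genes passed filterByExpr (minimum count 10, minimum total 15) and were fitted with edgeR 4.0.16 (TMM, robust quasi-likelihood; R 4.3.3), with Benjamini-Hochberg adjustment over all of them and a threshold of 0.05. The script was tested on simulated data. DESeq2 1.42.0 and limma 3.58.1 (voom with quality weights) were alternatives, with other scalings and filters, a replicate block and leaving out libraries. CPM are TMM-scaled; log2 CPM use a prior count of 2. Each standard error is the fold change divided by the root of its F. Ratios used GENCODE exon lengths on GRCm38 and a prior of 0.5 reads, with two-sided exact permutation tests over 20 assignments; coding lengths and unscaled reads were added after seeing the data. No replicate pair agreed within sampling noise (lowest chi-square per degree of freedom 10.4).

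All 10 subunit genes are named, with up to 3 genes of smallest unadjusted p per related list and 3 of most like pattern for Gria2 and Grin1; some of these are not reported here. The members and lists were chosen with earlier results of these data known.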

Additional observations from a re-analysis of the deposited data

How the results depend on the processing

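With all libraries 0 genes were called, against 1 without the filter on low counts and 33 by DESeq2; 0 subunit genes were called under any setting. The median log2 fold change of the subunit genes, 0.37, ran from 0.075 to 1.09 with 1 library left out and was 1.17 without sgRosa replicate 3 and sgEgfr replicate 1; the cause was not tested. Signs changed under scaling for Gria1 alone (-0.015 upper-quartile, -0.041 library size). With 1 library left out, log2 fold changes ran from -0.27 to 0.67 for Gria1, -0.025 to 1.18 for Gria2, -0.42 to 0.27 for Gria4, -0.27 to 0.56 for Grin1 and -0.17 to 1.00 for Grin2d, and the ratio of Gria4 to Gria2 from -1.52 to 0.034. Relative to pan-neuronal genes the ranges were -0.20 to 0.19 for Gria2, -0.037 to 0.52 for Gria3, -0.58 to 0.86 for Grin2c, -0.36 to 0.13 for Grin2d and -0.063 to 0.70 for Grin3a. Against excitatory markers 9 of 10 genes were negative and against Rbfox3 alone 7 of 10, where 5 were against pan-neuronal genes; the genes that turned were at -0.39 for Gria3, -0.071 for Grin2b, -0.53 for Grin2c and -0.19 for Grin3a, and, for Rbfox3, -0.015 for Gria3 and -0.16 for Grin2c. Whether the same replicate numbers pair the libraries was not clear. Correlations of deviations were -0.031, 0.48 and 0.28 for replicates 1, 2 and 3, and ran from -0.45 to 0.21 between unlike numbers. With a replicate block 0 genes and 0 subunit genes were called, the median was 0.56, 9 were positive, and 3 subunit genes (Grin2a, Grin2b and Grin3a) had an unadjusted p under 0.05, as did 9.56% of all genes. Of 234 values of these comparisons under alternatives 210 were labelled the same, 20 reversed and 4 moved. Ratios and relative values were labelled by sign alone, and counts and the median by how far they moved. Some could not change, such as a ratio of single genes under another length. Of 148 fold changes of single genes 135 kept direction and call and 13 reversed. Grin2a, with at most 25 reads, and Grin2c, with at most 22, are limited by depth, and both were removed by the stricter filter.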
